A study of Mus musculus with 27 samples.

Results

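The 37 genes described here are interferon-stimulated genes, read from the count table by their symbols. All 37 symbols were found among the 37095 rows of the table. They comprise the transcription factors Irf7, Irf9 and Stat2, the Ifit, Oas, Mx and Gbp families, the nucleic acid sensors Ifih1, Dhx58 and Zbp1, the ubiquitin-like Isg15 with its protease Usp18, the chemokines Cxcl9 and Cxcl10, the apolipoproteins Apol9a and Apol9b, and the effectors Rsad2, Cmpk2, Parp12, Parp14, Trim30a, Bst2, Ifi27, Ifi35, Ifi44, Xaf1 and Rtp4. RNA was counted in 27 mouse libraries from skull (the skullcap, rinsed of blood), meninges (scraped from the skullcap) and brain. Each tissue had 3 libraries taken 0.5 h and 3 taken 24 h after UVB light (311 nm, 2 mW) on the interparietal bone at the back of the skullcap, and 3 from untreated controls. The comparisons ask what such light does in bone, meninges and brain. The labels give no strain, age, sex, sham handling or hour of collection, and do not say whether replicates are separate animals, so the p-values measure only the spread between these samples.

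Type I interferons bind the receptor made of Ifnar1 and Ifnar2, and the kinases Jak1 and Tyk2 then activate the complex ISGF3, which contains Stat2 and Irf9 and binds the interferon-stimulated response element (ISRE) in the promoters of these genes. Interferon gamma acts through Ifngr1 and Ifngr2 on a separate element, GAS, and is the classical inducer of Cxcl9. In the brain and at its borders, low interferon signalling is present without infection and rises in infection, injury and ageing.

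The ISRE is shown first because it is the sequence feature that ties these genes to ISGF3. RefSeq promoters (build GRCm38.p6, 250 bases before to 50 after each start) were matched for 28 of the 37 genes. The ISRE was searched on both strands as the letters GAAA, any 2 bases and GAAA again, and was present in the promoters of 17 of the 28 genes (60.7%) and of 1079 of all 27025 genes with a promoter (3.99%). The GAS letters TTCNNNGAA, which read the same on both strands, were present in 5 of the 28 (17.9%) and in 9.55% of all genes. Matches are descriptions, not binding sites, and several of them overlap each other. In each window below 1 match is in capitals, and the Isg15, Bst2 and Apol9 windows hold further matches that overlap it. Windows are written 5′ to 3′ on the gene's strand, for a highly expressed gene of the set, an Ifit gene, the chemokine Cxcl10 and the Apol9 pair. A match on the opposite strand reads as TTTC, any 2 bases and TTTC.
Ifit1, chr19:34640775-34640804, plus strand: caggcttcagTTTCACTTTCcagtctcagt
Isg15, chr4:156200871-156200900, minus strand: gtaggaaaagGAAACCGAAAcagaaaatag
Bst2, chr8:71537577-71537606, minus strand: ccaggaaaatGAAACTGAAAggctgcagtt
Cxcl10, chr5:92349083-92349112, minus strand: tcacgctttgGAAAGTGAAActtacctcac
Apol9a, chr15:77411120-77411149, minus strand: gaggtgagacTTTCAGTTTCcatttcccag
Apol9b, chr15:77729025-77729054, plus strand: gaggtgagacTTTCAGTTTCcatttcccag
The match began 104 bases before the RefSeq start in Ifit1, 72 in Isg15, 124 in Bst2 and 213 in Cxcl10. The Apol9a and Apol9b windows are letter for letter the same. The window of Cxcl9 held neither motif.

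Libraries held 14.2 M to 27.3 M counts, with brain control 1 at the upper end and the next at 18.2 M. The 37 genes took 2565 to 8932 counts per brain library, 17718 to 70740 per meninges library and 11823 to 63816 per skull library. Levels are given as CPM, counts scaled to a common library size, with totals adjusted by the TMM method over all 27 libraries. Neuron and osteoblast markers differed by tissue. The summed level of 8 neuron markers was 13.3 to 27.9 CPM in skull, 348 to 558 CPM in meninges and 6629 to 7857 CPM in brain, and that of 5 osteoblast markers was 2670 to 4682 CPM in skull, 549 to 1526 CPM in meninges and 7.6 to 12.7 CPM in brain. Other lists separated less well. The sum of 6 meningeal fibroblast markers, led by Col1a1, was 56488 to 101388 CPM in skull and 13173 to 36198 CPM in meninges. Among meninges libraries, 4 choroid plexus markers summed to 28.5 to 12844 CPM and 4 skeletal muscle markers to 3.45 to 2861 CPM. The dissected meninges thus differed in the tissue they carried. In bulk tissue, fewer cells of a type and less RNA per cell cannot be told apart.

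Untreated skull and meninges carried far more of these transcripts than untreated brain. With edgeR's quasi-likelihood test and Benjamini-Hochberg adjustment over all 21500 tested genes at 0.05, which is what "called" means throughout, 36 of 37 genes were called higher in skull than in brain, where 37.3% of all tested genes were. Between meninges and brain, 35 of 37 were called higher, against 36.8% of all genes. The median log2 fold change over the 37 genes was 3.52 for skull over brain and 3.19 for meninges over brain, and over all tested genes it was -0.02 and 0.06. Rsad2, the antiviral enzyme viperin, was higher in skull than in brain by 4.94 ± 0.71 (SE) log2 units (adjusted p = 3.5e-06), and by 4.53 to 5.52 with each library left out in turn. The exception in both comparisons was Cmpk2, a mitochondrial nucleotide kinase encoded beside Rsad2. Cmpk2 had 41.0, 73.8 and 41.0 CPM in untreated skull, 26.2, 14.0 and 47.8 CPM in untreated meninges and 27.7, 21.2 and 33.6 CPM in untreated brain. The meninges range overlapped those of skull and brain, while every skull control lay above every brain control. By edgeR neither skull over brain (0.92 log2 units, adjusted p = 0.2) nor meninges over brain (0.13, adjusted p = 0.864) was called. Cxcl10 was not called between meninges and brain either (1.25 log2 units, adjusted p = 0.204), with 13.1 CPM in brain control 1 and 0.254 and 0.509 CPM in the other 2 brain controls.

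Few of the genes were called between untreated skull and meninges, 3 of 37, where 48.2% of all tested genes were. Of the 37, 31 had a positive log2 fold change, with a median of 0.40. The median SE was 0.65 over the 37 genes and 0.24 over all tested genes, so a gene not called may still differ. Under the 5 other settings the count was 2 to 12. Oas3, an oligoadenylate synthetase, was higher in skull by 2.38 ± 0.86 log2 units (adjusted p = 0.0285) and Rsad2 by 1.75 ± 0.60 (adjusted p = 0.0217). Rsad2 had 120.1, 232 and 181 CPM in untreated skull, against 39.0, 27.6 and 88.0 CPM in untreated meninges, without overlap. Ifi27, a small mitochondrial and nuclear envelope protein, was lower in skull (log2 fold change -0.75 ± 0.30, adjusted p = 0.0436), with 113, 111 and 95.6 CPM in skull against 162, 114 and 249 CPM in meninges. The Ifi27 call ended with RLE scaling (adjusted p = 0.0523), with limma-voom (0.0892) and with no filter on low counts (0.108), and the Oas3 call ended with DESeq2 (0.0507). The count was 0 without meninges control 1 or skull control 2, 1 without meninges control 2 and 5 without meninges control 3.

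Per kilobase of exon, the order of levels was led by largely the same genes in the 3 tissues. Bst2 (tetherin, which holds budding virus at the cell surface) averaged 370.2 CPM per kb in untreated skull, 238 in meninges and 15.8 in brain. Isg15 averaged 182 CPM per kb in skull, 93.4 in meninges and 7.31 in brain, and Ifit3, an RNA-binding antiviral protein, 80.1, 75.6 and 8.37. Ifi27 was first in brain at 26.7 CPM per kb, with 72.6 in skull and 119 in meninges. Irf7, the factor that amplifies interferon production, followed in both border tissues, at 66.8 CPM per kb in skull and 36.2 in meninges. Stat2 followed in brain at 6.93 CPM per kb. At the low end, Apol9a averaged 1.80 CPM per kb in skull, 0.656 in meninges and 0.0891 in brain. Neighbours in these orders were not tested against each other, and the libraries of one group differed severalfold.

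The dominant feature of the 37 genes was a level that differed between libraries of the same group and moved together across genes. Their summed level was 790 to 2379 CPM at 0.5 h, 1119 to 3700.5 CPM at 24 h and 1939 to 3982 CPM in controls of skull. In meninges it was 1109 to 2174 CPM at 0.5 h, 959.9 to 4065 CPM at 24 h and 957 to 3545 CPM in controls. In brain it was 175 to 253 CPM at 0.5 h, 169 to 214 CPM at 24 h and 176 to 487 CPM in controls. The ratio of the highest to the lowest library reached 4.23 in meninges at 24 h and 3.70 in meninges controls. The summed level of 4 general leukocyte markers differed between the libraries of these groups by ratios of 1.32 and 1.63. In these groups it was highest in the library that was highest for the 37 genes and lowest in the one that was lowest. In meninges at 0.5 h the order was the opposite, with 239 CPM in the highest library and 262 CPM in the lowest, and in skull at 24 h the library lowest for the 37 genes had the highest leukocyte sum, 836 CPM. The part of leukocytes in the spread was not tested.

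**Figure D1:**
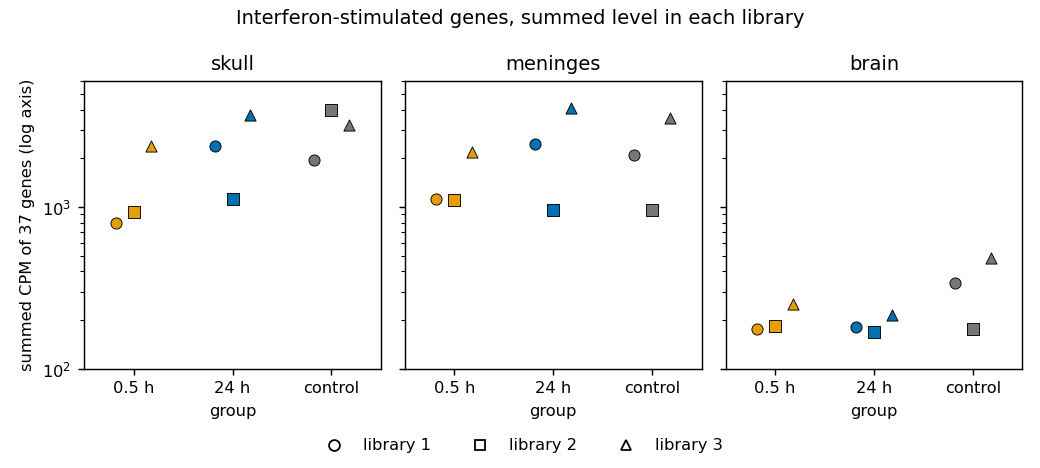
Summed CPM of the 37 genes in each library (log axis), by group, for skull, meninges and brain; each symbol is 1 library. Libraries of one group spread over up to a 4.23-fold range, and every skull and meninges library lies above every brain library.

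The same libraries were high or low for nearly all genes. At 24 h, library 3 was the highest of its group for 36 of 37 genes in skull and 37 of 37 in meninges, and library 2 was the lowest for 37 of 37 in skull and 36 of 37 in meninges. At 0.5 h, library 3 was the highest for 36 genes in skull, 36 in meninges and 31 in brain, and for 30 genes it was the highest in all 3 tissues. Among untreated controls, library 2 was the lowest for 37 of 37 genes in meninges and for 35 of 37 in brain, while in skull library 2 was the highest for 29 and library 1 the lowest for 34. The labels do not say whether libraries with the same number in different tissues come from one mouse.

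**Figure D2:**
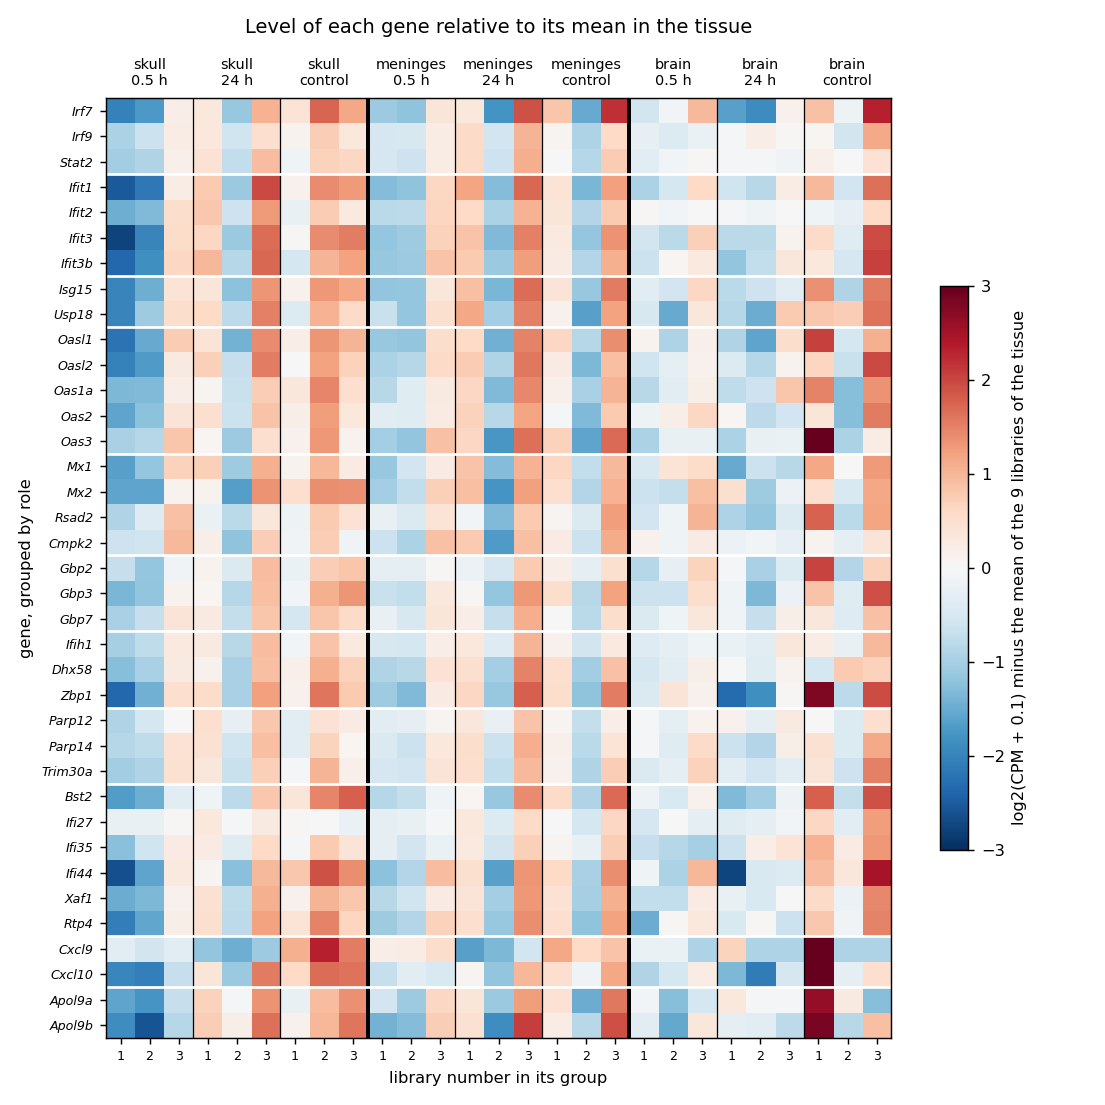
Log2(CPM + 0.1) of each gene minus its mean over the 9 libraries of the tissue, with genes in rows grouped by role and libraries in columns. Red is above and blue below that mean. Columns are mostly of 1 colour: library 3 is high within most groups, and skull libraries 1 and 2 at 0.5 h are low.

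This spread exceeded that of most genes. The median SD of log2 CPM among the 3 libraries was 0.90 at 0.5 h, 0.89 at 24 h and 0.58 in controls of skull, against 0.173, 0.170 and 0.203 over all 17426 tested genes. In meninges it was 0.69, 1.26 and 1, against 0.164, 0.199 and 0.197 over 18542 genes. In brain it was 0.51, 0.48 and 0.97 over the 32 genes that passed the low-count filter, against 0.155, 0.186 and 0.163 over 18172 genes. Those past the 90th percentile of all tested genes numbered 31, 31 and 10 of 37 in skull at 0.5 h, at 24 h and in controls, 19, 31 and 27 of 37 in meninges, and 12, 10 and 25 of 32 in brain.

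**Figure D3:**
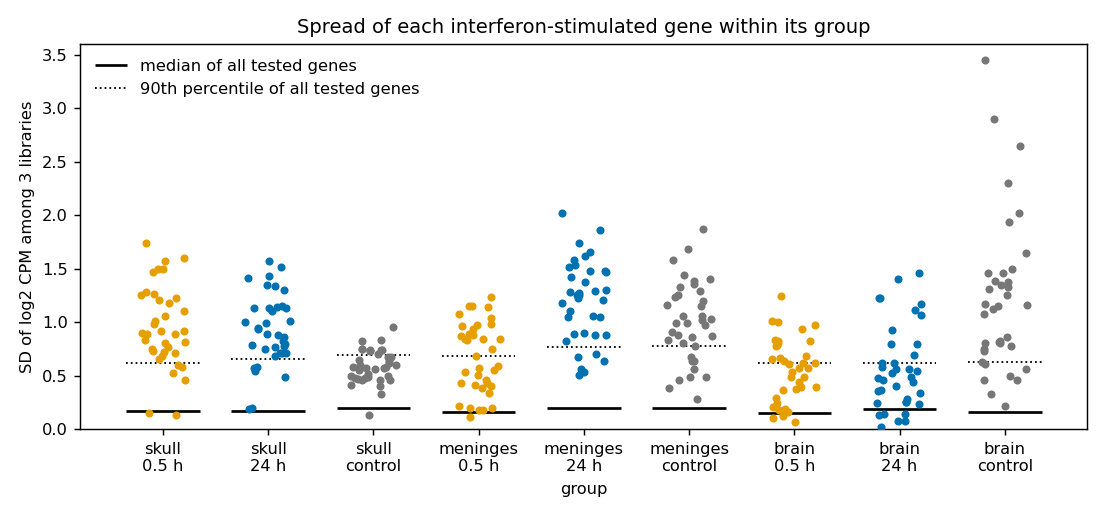
SD of log2 CPM among the 3 libraries of each group, 1 point per gene (37 points a group), with the median (solid line) and 90th percentile (dotted line) of all tested genes. Most points lie above the solid line in every group, and those of meninges at 24 h and of brain controls reach the highest values.

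Among the controls, Irf7 varied most in meninges, with 109.5, 21.4 and 279 CPM (SD of log2 CPM 1.87). Oas3 followed with 19.6, 3.98 and 39.2 CPM, then Apol9a with 3.36, 0.808 and 7.55 CPM. After these came Usp18, which removes Isg15 from proteins and dampens receptor signalling, with 15.7, 4.52 and 33.2 CPM. Library 3 was the highest and library 2 the lowest for each of these 4 genes. In skull controls the widest were Ifit3b at 12.2, 35.8 and 40.7 CPM and Ifit3 at 65.1, 170.2 and 184 CPM, followed by the Apol9 pair and Bst2. Cxcl9 was the steadiest of the 37 in meninges controls (SD 0.28), as was Ifi27 in skull controls (SD 0.13).

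In brain controls the spread had 2 forms. The 5 genes with the largest SD were Cxcl9, Cxcl10, Oas3, Apol9a and Apol9b, all highest in brain control 1 and all below the filter of the brain fit. Cxcl9 had 99 counts (3.75 CPM) in brain control 1 and 0 counts in each of the other controls, which allows up to 0.191 CPM at 3 counts in each, counting error only. Cxcl10 had 13.1, 0.254 and 0.509 CPM. Brain control 3, in contrast, was the highest for 26 of the 37 genes, such as Ifit3 with 10.7, 5.46 and 27.7 CPM and Irf7 with 7.34, 3.56 and 20.4 CPM. Brain control 1 also held 76.3 CPM of 7 summed markers of antigen-presenting cells, against 20.2 and 17.1 CPM in the other controls, and 1.63 CPM of 7 summed T and NK cell markers, against 0.254 and 0.318 CPM. Brain control 1 also stood apart outside these lists, with 17.7 CPM of 4 summed osteoclast markers, against 5.21 and 7.88 CPM. Its 4 choroid plexus markers summed to 207 CPM, against 599 and 592 CPM, and Socs3 had 18.7 CPM, against 2.29 and 3.18 CPM. The 8 neuron markers did not stand apart, at 7165 CPM against 6767 and 7541 CPM. The part of its cell mixture and of its depth in the result was not tested.

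In skull 0.5 h after UVB, all 37 genes had a negative log2 fold change against controls, with a median of -1.34 against 0.00 over all genes, and 2 were called lower, where 2.94% of the 17426 tested genes were. Cxcl9, a chemokine that attracts activated T cells through Cxcr3 (chr5:92321347-92328079, minus strand, GRCm38), had 5.28, 4.46 and 5.16 CPM at 0.5 h, against 13.8, 33.4 and 19.2 CPM in controls. Every 0.5 h library lay under every control library, and the log2 fold change was -2.18 ± 0.29 (adjusted p = 0.00316 by edgeR). Apol9b, an interferon-inducible member of the apolipoprotein L family (chr15:77729039-77736382, plus strand), had 1.27, 0.721 and 2.64 CPM at 0.5 h, against 5.33, 9.80 and 15.1 CPM in controls, again without overlap (-2.70 ± 0.60, adjusted p = 0.0421). Its neighbour Apol9a had 1.94, 1.70 and 3.70 CPM at 0.5 h and 5.13, 11.5 and 15.6 CPM in controls (-2.14 ± 0.53, adjusted p = 0.0567). Apol9a thus did not overlap between groups but was not called.

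The call of Apol9b at 0.5 h ended without skull 0.5 h library 1 (adjusted p = 0.151), without 0.5 h library 2 (0.145), without control 2 (0.0847) and without control 3 (0.113), and with no filter on low counts (0.110). The call of Cxcl9 held in all 6 fits that left out 1 library (log2 fold change -2.43 to -1.75, adjusted p 0.00122 to 0.0322) and under all 5 other settings. Of the families with no call, the 4 Ifit genes had log2 fold changes of -1.99 to -0.80, the 5 Oas genes -1.51 to -0.72, the 3 Gbp genes -1.56 to -0.73 and the 3 transcription factors -2.05 to -0.80. Irf7 had 26.6, 33.3 and 126 CPM at 0.5 h, against 145, 367 and 245 CPM in controls (-2.05 ± 0.83, adjusted p = 0.216). Ifit3 had 9.09, 16 and 92.7 CPM at 0.5 h, against 65.1, 170.2 and 184 CPM in controls (-1.85 ± 1.09, adjusted p = 0.385), and overlapped through 0.5 h library 3. Ifi27 and Cmpk2 moved least, each with -0.11.

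In 11 of 37 genes the 0.5 h and control libraries did not overlap, all lower at 0.5 h, where 12.6% of all tested genes were lower without overlap. They include Bst2, with 42, 48.9 and 105 CPM at 0.5 h against 172, 368 and 462 CPM in controls (-2.38 ± 0.63, adjusted p = 0.0892), and Cxcl10, another Cxcr3 ligand, with 2.67, 2.49 and 6.57 CPM at 0.5 h against 16.3, 34.2 and 32.9 CPM in controls (-2.84 ± 0.77, adjusted p = 0.0928). Library 3 was the highest 0.5 h library for most genes, and without it the median over the 37 genes was -2.14. DESeq2 called 5 genes and limma-voom 7, all lower.

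**Figure D4:**
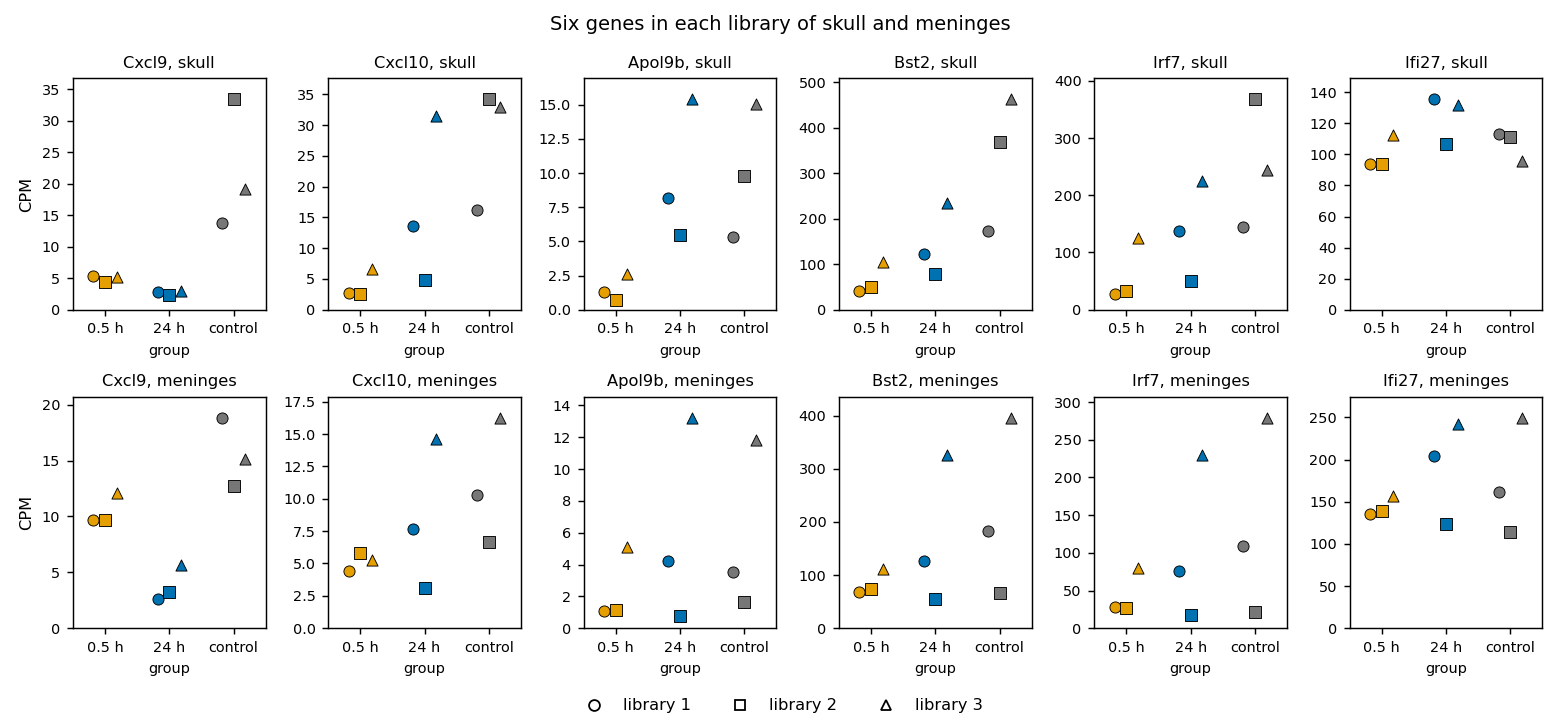
CPM of Cxcl9, Cxcl10, Apol9b, Bst2, Irf7 and Ifi27 in each library of skull (top) and meninges (bottom), by group; each symbol is 1 library and axes start at 0. Cxcl9 is low in all treated skull libraries and in all 24 h meninges libraries, while Irf7 and Bst2 spread widely within groups.

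At 24 h in skull, Cxcl9 was the 1 gene of 37 called, lower, where 10.4% of all tested genes were called lower. It had 2.86, 2.32 and 3.02 CPM at 24 h against the same controls, a log2 fold change of -3.03 ± 0.31 (adjusted p = 9.27e-05), and the call held without each library in turn (-3.28 to -2.60, adjusted p 4.14e-05 to 0.00147). Over the 37 genes the median was -0.27, and 30 of 37 were negative. The median SE was 0.63, so a gene not called may still differ from controls. That median was 0.07 without 24 h library 2 and -0.70 without 24 h library 3. Next by p were Ifi27, with 135, 107 and 132 CPM at 24 h against 113, 111 and 95.6 CPM in controls (0.21 ± 0.11, adjusted p = 0.195), and Bst2, with 122, 77.9 and 234 CPM at 24 h against 172, 368 and 462 CPM in controls (-1.22 ± 0.60, adjusted p = 0.207).

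The 24 h skull libraries were then set against those at 0.5 h. Apol9b and Apol9a were called higher, where 8.39% of all tested genes were. Apol9b had 8.19, 5.46 and 15.4 CPM at 24 h, against 1.27, 0.721 and 2.64 CPM at 0.5 h (2.63 ± 0.60, adjusted p = 0.0208). Apol9a had 9.81, 5.74 and 15.5 CPM at 24 h, against 1.94, 1.70 and 3.70 CPM at 0.5 h (2.08 ± 0.53, adjusted p = 0.0305). Both pairs of groups stood apart, and 34 of 37 genes had a positive fold change, with a median of 0.90. Cxcl9 was 1 of the 3 exceptions, at -0.85 ± 0.31 (adjusted p = 0.0881). Ifi27 was the third by p, at 0.33 ± 0.11 (adjusted p = 0.0651). Both Apol9 calls ended without 0.5 h library 1, 0.5 h library 2, 24 h library 1 or 24 h library 3, with adjusted p from 0.0517 to 0.109, and 4 genes were called without 24 h library 2. With no filter on low counts both Apol9 calls ended as well (adjusted p 0.103 for Apol9a and 0.0714 for Apol9b), and Ifi27, higher, and Cxcl9, lower, were called in their place. DESeq2 called 4 genes and limma-voom 9.

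Markers of antigen-presenting cells are given beside Cxcl9. The summed level of their 7 markers in skull was 764, 629 and 903 CPM at 0.5 h and 408, 404 and 372 CPM at 24 h, against 1039, 1005 and 662 CPM in controls, and 5 of the 6 tested markers were called lower at 24 h. The sum of 7 T and NK cell markers was 32.0, 29.0 and 37.7 CPM at 0.5 h and 19.7, 31.3 and 30.5 CPM at 24 h, against 50.5, 66.4 and 27.3 CPM in controls, with 2 of 7 called lower at 24 h. The antigen-presenting sum came mostly from the MHC class II genes Cd74, H2-Aa, H2-Ab1 and H2-Eb1, so it is not a count of cells. At 0.5 h no marker of either list was called. The part of these cells in the Cxcl9 result was not tested.

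In meninges at 0.5 h, no gene of the 37 was called by edgeR, DESeq2 or limma-voom, where edgeR called 0.874% of the 18542 tested genes. At an unadjusted edgeR p under 0.05 there were 0 of the 37, against 2517 of all 18542. All 37 log2 fold changes were negative, with a median of -0.58 that ran from -1.18 without 0.5 h library 3 to -0.06 without control 3. The smallest p was that of Cxcl9, with 9.64, 9.72 and 12.1 CPM at 0.5 h against 18.8, 12.8 and 15.2 CPM in controls (-0.57 ± 0.26, adjusted p = 0.375). Cxcl10 had 4.42, 5.78 and 5.29 CPM at 0.5 h against 10.3, 6.68 and 16.2 CPM in controls (-1.1 ± 0.53, adjusted p = 0.422), and Ifi35, a regulator of innate signalling, 13.8, 11.3 and 14.7 CPM at 0.5 h against 17.7, 14.4 and 27.9 CPM in controls (-0.59 ± 0.34, adjusted p = 0.518). The chemokines did not overlap between groups, and Ifi35 did.

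At 24 h in meninges, Cxcl9 was again the 1 gene called, lower, where 4.45% of all tested genes were called lower. It had 2.62, 3.25 and 5.63 CPM at 24 h, against 18.8, 12.8 and 15.2 CPM in controls (-2.01 ± 0.27, adjusted p = 0.00195), and the call held without each library in turn (-2.40 to -1.80, adjusted p 0.000765 to 0.013). The remaining genes had no common direction. Of the 37, 25 had a positive fold change, and the median of 0.19 was -0.34 without 24 h library 3, -0.20 without control 2, 0.64 without 24 h library 2 and 0.71 without control 3. Parp12, an ADP-ribosyltransferase, had 117, 78.8 and 166 CPM at 24 h against 96.8, 56.4 and 105 CPM in controls (0.50 ± 0.33, adjusted p = 0.416). Ifih1, the RNA sensor MDA5, had 57.2, 35.1 and 92.8 CPM at 24 h against 50.6, 31.2 and 56.7 CPM in controls (0.43 ± 0.41, adjusted p = 0.588). Both overlapped with controls.

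Against 0.5 h, Cxcl9 at 24 h was also lower in meninges (-1.45 ± 0.27, adjusted p = 0.0227), where 1.27% of all genes were called lower. This call ended without any 1 of the 3 libraries at 0.5 h or without 24 h library 1 or 2, with adjusted p from 0.0517 to 0.0968. Of the 37 genes, 36 had a positive fold change, with a median of 0.73 and none called. In these libraries the 7 antigen-presenting markers summed to 1254, 1245 and 1309 CPM at 0.5 h and 685, 641 and 679 CPM at 24 h, against 1974, 1383 and 1666 CPM in controls, and 5 of 7 were called lower at 24 h against controls. T and NK cell markers summed to 8.67, 6.89 and 11.7 CPM at 0.5 h and 8.08, 6.56 and 7.18 CPM at 24 h, against 14.7, 13 and 14.1 CPM in controls. The part of these cells in the result was not tested.

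**Figure D5:**
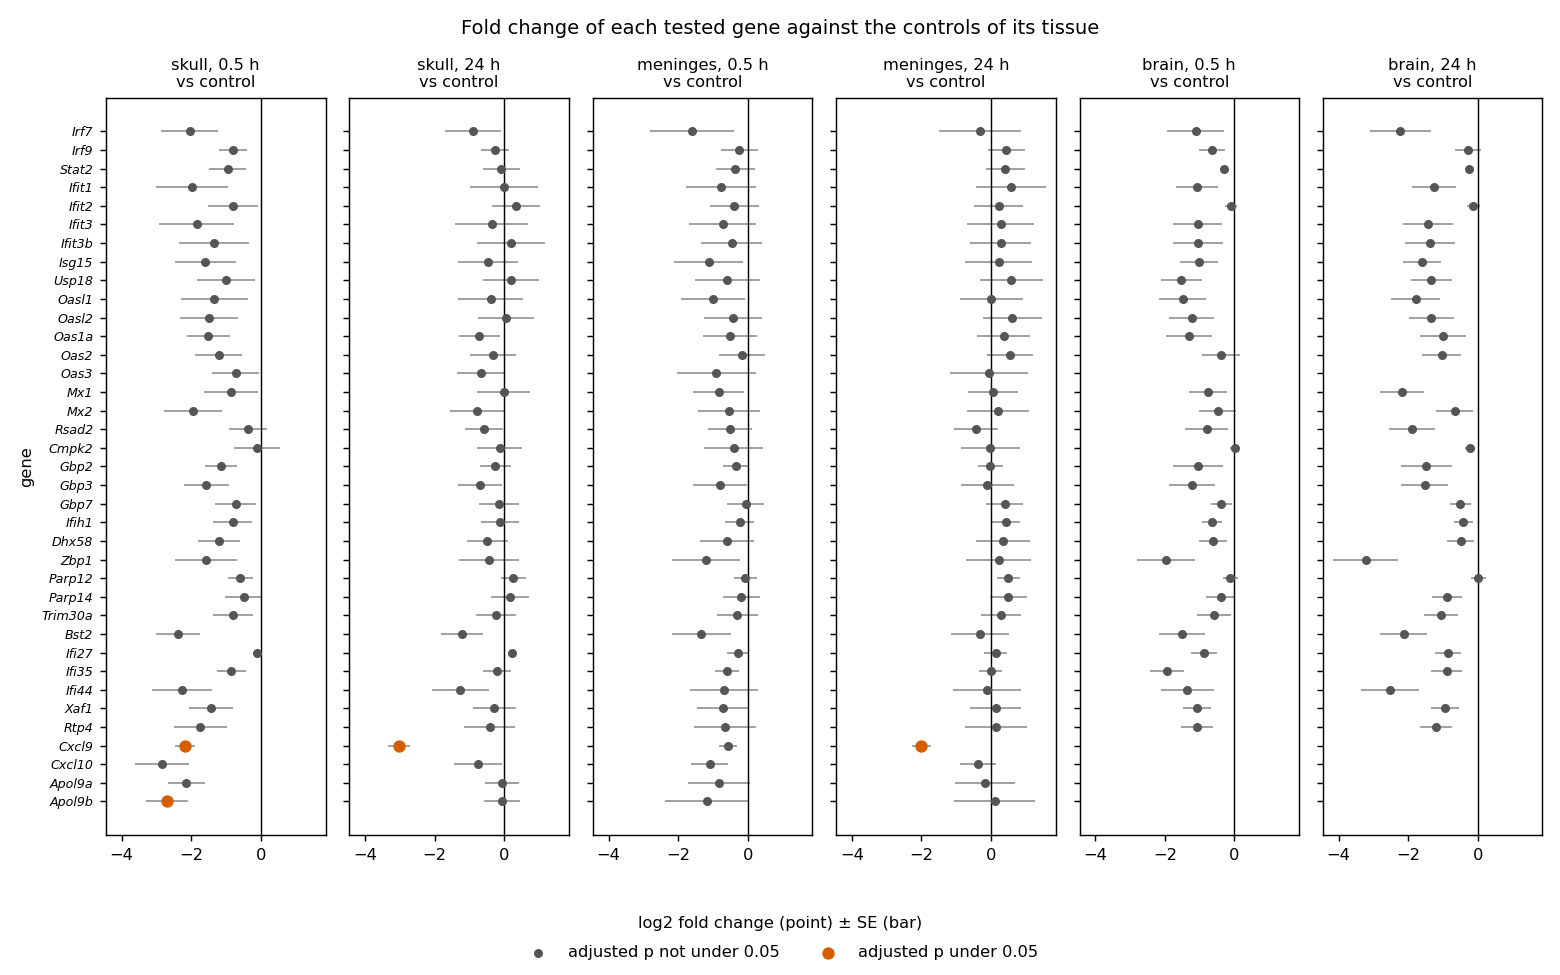
Log2 fold change (point) and SE (bar) of each gene against the controls of its tissue at 0.5 h and 24 h, from edgeR; orange points had an adjusted p under 0.05. Only Cxcl9 and, in skull at 0.5 h, Apol9b are orange, and the bars of most other genes span over 1 log2 unit.

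In brain, 32 of the 37 genes could be tested. At 0.5 h none was called by edgeR, DESeq2 or limma-voom, where edgeR called 0.0055% of the 18172 tested genes. At an unadjusted edgeR p under 0.05 there were 8 of the 32, against 955 of all 18172. Without control 2, edgeR called 1 gene. The median over the 32 genes was -1.03, and 31 were negative. The smallest p was that of Ifi35, with 0.515, 0.458 and 0.402 CPM at 0.5 h against 1.97, 1.08 and 2.35 CPM in controls (-1.93 ± 0.49, adjusted p = 0.462). Stat2 had 28.6, 33.5 and 36.4 CPM at 0.5 h against 39.6, 35.6 and 47.9 CPM in controls (-0.29 ± 0.11, adjusted p = 0.904) and Usp18 0.901, 0.392 and 1.68 CPM at 0.5 h against 2.35, 2.22 and 4.20 CPM in controls (-1.52 ± 0.59, adjusted p = 0.913). Ifi35 and Usp18 did not overlap between groups, and Stat2 overlapped.

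At 24 h in brain, 31 of 32 log2 fold changes were negative, with a median of -1.13 against 0.00 over all genes. None was called by edgeR or limma-voom, where edgeR called 2.62% of all tested genes, and DESeq2 called 4 lower (Zbp1, Isg15, Rsad2 and Bst2). At an unadjusted edgeR p under 0.05 there were 11 of the 32, against 3318 of all 18172. Mx1, an antiviral GTPase, had 0.135, 0.329 and 0.273 CPM at 24 h against 1.40, 0.572 and 1.53 CPM in controls (-2.18 ± 0.63, adjusted p = 0.0698). Ifi44, an interferon-inducible protein of the cytoplasm, had 0.135, 1.05 and 1.09 CPM at 24 h against 2.91, 1.91 and 8.77 CPM in controls (-2.52 ± 0.84, adjusted p = 0.165). Neither overlapped, whereas Zbp1, the sensor of Z-form nucleic acids, had 0.0675, 0.132 and 0.750 CPM at 24 h against 5.67, 0.381 and 3.12 CPM in controls (-3.23 ± 0.94, adjusted p = 0.107) and did. These levels are low: at 24 h Mx1 had 2, 5 and 4 counts, Ifi44 2, 16 and 16, and Zbp1 1, 2 and 11. Their fold changes are therefore uncertain. The size of the median depended on the controls. The median was -0.52 without control 3, -1.11 without control 1 and -1.47 without control 2, when 5 genes were called lower, and 1 gene was called without 24 h library 3. Between 24 h and 0.5 h in brain, none was called by any of the 3 tests, where edgeR called 0.22% of all genes. At an unadjusted edgeR p under 0.05 there was 1, Mx1 (-1.43 ± 0.66, adjusted p = 0.393), against 2208 of all 18172.

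The 24 h effect itself was compared between tissues in a fit of all 27 libraries. None of the 37 genes was called by edgeR in any of the 3 differences, where 0.633% of all genes were called for skull minus meninges, 6.71% for skull minus brain and 1.32% for meninges minus brain. At an unadjusted p under 0.05 there were 0, 2 and 2 of the 37 genes, against 2410, 4515 and 2988 of all 21500. Those of the 37 were Cxcl10 (4.82 ± 1.88 log2 units for skull minus brain, adjusted p = 0.137, and 5.18 ± 1.87 for meninges minus brain, adjusted p = 0.191) and Ifi27. DESeq2 called Cxcl10 in both, and edgeR called 1 gene for skull minus brain without brain control 2. The Cxcl10 values in brain controls were 13.1 CPM in control 1 and 0.254 and 0.509 CPM in the others. Cxcl9, the gene called in both border tissues, was not called different between them (skull minus meninges -1 ± 0.95, adjusted p = 0.785). That fit estimates spread from all 27 libraries, including brain controls in which Cxcl9 had 99, 0 and 0 counts. The SE exceeded those of Cxcl9 in the separate skull and meninges fits, so this result cannot decide whether the 24 h effects differ.

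Other genes of the pathway, listed apart from the 37, gave a wider view of the same route. Of 11 interferon ligands listed, 3 had rows, and none passed the filter. Ifnb1 had 9 counts over all 27 libraries, 6 of them in meninges 24 h library 1, Ifnk had 9 and Ifng had 18, of which 13 lay in skull controls and skull 0.5 h libraries 2 and 3. All 6 receptor chains were called higher in untreated skull and in untreated meninges than in untreated brain, where 37.3% and 36.8% of all tested genes were. In skull at 24 h against controls, 1 of 6 was called higher and 1 lower, where 3649 of 17426 tested genes were called. At 0.5 h in skull 1 was called higher, where 854 genes were called, and at 24 h against 0.5 h 1 lower, where 2811 were. In meninges at 24 h against controls, 1 was called higher and 1 lower, where 1561 of 18542 were called. Ifngr1, a chain of the interferon gamma receptor, fell at 24 h in skull, to 179 ± 8.6 CPM against 251 ± 19.1 CPM in controls (SD, n = 3 each; -0.50 ± 0.08, edgeR adjusted p = 0.00136) and in meninges, to 130.3 ± 10.9 CPM against 167 ± 13.1 CPM in controls (-0.35 ± 0.09, edgeR adjusted p = 0.0321). It was also lower at 24 h than at 0.5 h in skull (-0.29 ± 0.08, adjusted p = 0.0284). Ifngr2, the other chain, rose in skull at 24 h (0.32 ± 0.08, adjusted p = 0.0148). Ifnar2, a chain of the type I receptor, rose in meninges at 24 h (0.63 ± 0.16, adjusted p = 0.032), and Ifnlr1, the interferon lambda receptor, rose in skull at 0.5 h (1.1 ± 0.25, adjusted p = 0.0298).

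Of 15 listed signalling genes, 1 was called lower in skull at 0.5 h, where 513 of 17426 tested genes were. At 24 h in skull 2 were called lower, where 1807 were. In meninges 1 was called lower at each time, where 94 of 18542 were at 0.5 h and 825 at 24 h. None was called higher against controls. Irf1, a factor induced by interferon gamma, fell in skull. It had 33.7, 36.7 and 54.0 CPM at 0.5 h and 35.0, 31.4 and 40.1 CPM at 24 h, against 72.7, 92.3 and 80.2 CPM in controls (-1 ± 0.17, adjusted p = 0.0139, and -1.22 ± 0.18, adjusted p = 0.00121). No treated library reached the controls. Pias1, a SUMO ligase that inhibits cytokine signalling, fell in skull at 24 h (-0.41 ± 0.09, adjusted p = 0.00609), and Stat3 was higher at 24 h than at 0.5 h in skull (0.37 ± 0.10, adjusted p = 0.0194). Socs3, an inhibitor of cytokine signalling, fell in meninges, with 19.3, 24.4 and 19.3 CPM at 0.5 h and 28.8, 18.5 and 19.5 CPM at 24 h, against 46.4, 56.7 and 84.9 CPM in controls (-1.58 ± 0.25, adjusted p = 0.0268, and -1.48 ± 0.25, adjusted p = 0.00918).

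Of 17 tested nucleic acid sensing genes, 1 was called higher in skull at 0.5 h, where 341 of 17426 tested genes were. At 24 h in skull 2 were called higher, where 1842 were. In meninges at 24 h 3 were called higher, where 736 of 18542 were. From these, 3 that rose against controls are given. Mavs, the mitochondrial adaptor of the RNA sensors, rose in skull at 0.5 h (0.48 ± 0.11, adjusted p = 0.024) and 24 h (0.59 ± 0.11, adjusted p = 0.00233) and in meninges at 24 h (0.56 ± 0.12, adjusted p = 0.0193). Cgas, the DNA sensor, rose in skull at 24 h (0.81 ± 0.21, adjusted p = 0.0179), and its adaptor Sting1 rose in meninges at 24 h (0.49 ± 0.13, adjusted p = 0.0485). Between 24 h and 0.5 h, Cgas was higher in skull (0.75 ± 0.21, adjusted p = 0.0305), and Myd88, the adaptor of Toll-like receptors, was higher in meninges (0.47 ± 0.09, adjusted p = 0.0271).

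A further 68 interferon-responsive genes were listed, of which 67 were tested in skull and meninges and 59 in brain. In skull, 6 were called lower at 0.5 h and 9 at 24 h, none higher, where 2.94% and 10.4% of all tested genes were called lower. The medians were -0.65 and -0.32. All 6 at 0.5 h serve antigen presentation by MHC class I: H2-D1, H2-K1, B2m, Psmb8, Tapbp and Tap2. Tap1, Psmb9, Psmb10 and Nlrc5, listed genes of the same route, were not called in skull at 0.5 h or 24 h against controls. H2-K1 had 469, 459 and 633 CPM at 0.5 h and 432, 443 and 564 CPM at 24 h, against 1213, 1594 and 827 CPM in controls (-1.24 ± 0.23, adjusted p = 0.0213, and -1.35 ± 0.23, adjusted p = 0.00415). B2m, the light chain of class I molecules, had 526, 540 and 698 CPM at 0.5 h and 510.2, 487 and 707 CPM at 24 h, against 1211, 1656 and 1098 CPM in controls (-1.19 ± 0.19, adjusted p = 0.0103, and -1.23 ± 0.19, adjusted p = 0.00178). Treated and control libraries did not overlap for either gene. H2-D1 fell at 0.5 h (-0.98 ± 0.17, adjusted p = 0.0118) and 24 h (-1.12 ± 0.17, adjusted p = 0.00122), and at 24 h Psmb8, Tapbp and Tap2 fell again (-0.70, -0.64 and -0.54). The remaining 3 at 24 h were the checkpoint ligand Cd274 (-0.93 ± 0.28, adjusted p = 0.0363), the exonuclease Isg20 (-0.62 ± 0.17, adjusted p = 0.0262) and the chemokine Ccl5 (-1.13 ± 0.35, adjusted p = 0.0372). Ly6a, a surface protein of leukocytes and stem cells, was higher at 24 h than at 0.5 h in skull (2.01 ± 0.48, adjusted p = 0.0366). In meninges none of the 67 was called against controls, and in brain 1 of 59, Helz2, fell at 24 h (-0.77 ± 0.20, adjusted p = 0.0451).

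Some counts are uncertain because gene copies share sequence. Of the 75-base words in their transcripts, 41.1% of Ifit3 and 35.7% of Ifit3b are shared between the pair, 47.6% of Oas1a with Oas1g, and 43.3% of Apol9b and 13.8% of Apol9a between that pair, so reads could have been split among them. With the strand setting not given in the sources used here, 290 exon bases of Ifi35 (16.8%) shared with the antisense gene Gm11626 and 133 of Cxcl10 (5.9%) shared with Art3 on the opposite strand could hold reads of either gene. Cxcl9 had no exon overlap in the annotation used. Mx2 is annotated as a polymorphic pseudogene.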

How the data were processed

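The authors deposited counts per gene symbol for 27 libraries (14.2 M to 27.3 M counts), which were used as deposited. Per the labels' protocols, poly(A) RNA was selected with beads. The submitters' processing notes name the build mm10 and the aligner HISAT2 2.1.0. Sources used here do not give the counter, annotation or strand setting. The 37 genes, the other lists and the tests were chosen with earlier results of these data known.

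edgeR 4.0.16 (R 4.3.3) was run with TMM scaling and robust quasi-likelihood fits after its filter on low counts (minimum count 10, minimum total 15). Comparisons within a tissue used its 9 libraries, and those between tissues all 27. Benjamini-Hochberg adjustment covered all tested genes at 0.05. Each SE was the size of the log2 fold change divided by the root of the F statistic, and SDs of log2 CPM used a prior count of 1. DESeq2 1.42.0, limma 3.58.1 (voom with quality weights), RLE scaling, no filter, a replicate block and leaving out each library were the alternatives. The procedure was tested on simulated data. Values per library were printed for genes called, for the 3 smallest p where fewer than 6 were called, and for genes among the 5 most variable or highest in controls; further genes named were chosen after their values were seen. Of the other pathway lists, genes called within a tissue were named, except for some that are not reported here. Gene positions and exon lengths came from GENCODE M21 (GRCm38). Counts carry counting error from PCR reads without molecular identifiers, and floors cover that error only.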

Additional observations from a re-analysis of the deposited data

How the results depend on the processing

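No called gene changed direction. The median fold change changed sign when 1 library was left out in meninges at 24 h (0.19, range -0.34 to 0.71) and skull at 24 h (-0.27, range -0.70 to 0.07) against controls, in brain at 24 h against 0.5 h (-0.22, range -0.48 to 0.12) and in the 24 h effect of skull minus meninges (-0.52, range -0.99 to 0.12). The number of the 37 genes called was within 1.5 times the main count in 60 of 75 alternatives. The median fold change shifted in all 75 by less than the pooled SD, among libraries of a group, of the genes' median log2 CPM. That limit is wide for these genes. For the 24 h effect in skull minus brain, the median was 1.05 and ran from 0.61 to 1.11, which counted as unchanged. With DESeq2 the counts were 5 for skull 0.5 h against control (2 in the edgeR fit), 4 for skull 24 h against 0.5 h (2), 4 for brain 24 h against control (0) and 1 each for the 24 h effect in skull minus brain and meninges minus brain (0). With limma-voom they were 7 for skull 0.5 h against control, 9 for skull 24 h against 0.5 h and 7 for untreated skull against meninges (3). With no filter on low counts they were 2 for brain 0.5 h against control (0), 11 for brain 24 h against control and 1 for skull 0.5 h against control. With the replicate block they were 5 for brain 24 h against control, 5 for skull 0.5 h against control, 2 for skull 24 h against control (1) and 12 for untreated skull against meninges. The cause was not tested. Replicate numbers were not taken to pair the libraries, since the labels do not say that they do. In no 2 groups were all 3 correlations over 0.1, but that limit cannot settle whether tissues share animals. The tests between tissues treated all libraries as independent and would ignore such a pairing. Deviations of same-numbered libraries correlated at -0.45 to 0.26 within a tissue, over 0.1 in 4 of 27 pairs, with 7 best matched by their own number, and at -0.10 to 0.23 across tissues, over 0.1 in 5 of 27 pairs, with 12 best matched. All 3 libraries matched their own number best between skull and meninges at 24 h (0.0995, 0.195 and 0.232) and between meninges and brain controls (0.0644, 0.168 and 0.0459), a hint from the data and not from the design. Leaving out each library in turn gave 0 to 1 genes called for brain 0.5 h against control, 0 to 5 for brain 24 h against control, 0 to 1 for meninges 24 h against 0.5 h, 1 to 3 for skull 0.5 h against control, 0 to 4 for skull 24 h against 0.5 h, 0 to 5 for untreated skull against meninges and 0 to 1 for the 24 h effect in skull minus brain. The skull 0.5 h median ran from -2.14 to -0.92. Depth limits the brain values: 3 counts correspond to 0.114 to 0.204 CPM there, and levels at or below that cannot be ordered. This applies to Cxcl9, Cxcl10, Oas3 and the Apol9 genes. It also applies to single libraries of tested genes, such as Mx1, Ifi44 and Zbp1 at 24 h.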
